A study of Mus musculus with 9 samples.

Results

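A set of 10 genes for secreted or lipoprotein-associated proteins, most of them best known from the liver, was followed in mouse periprostatic fat, which surrounds the prostate: the orosomucoids Orm1, Orm2 and Orm3, haptoglobin (Hp), serum amyloid A3 (Saa3), lipocalin 2 (Lcn2), the paraoxonases Pon1, Pon2 and Pon3, and albumin (Alb). They were chosen by name, as the rows of the expression table whose probe set carries exactly 1 gene symbol and that symbol is one of these. All 10 were found, out of 22180 genes in all, each with 1 probe set, and none of them also appears on a probe set with several symbols. The choice was made with results of these arrays known, in which Pon1, Orm3 and Alb were among the largest decreases, so the diet values of the 10 genes are given below as a description and without a test.

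The arrays come from male C57BL/6J mice for which the labels name no transgene or deletion. A group of 5 mice ate a diet with 60% of its energy as fat (D12492i) and a group of 4 a diet with 10% (12450Bi), both without restriction, from 6 weeks of age for 12 weeks. Tissue was frozen at 18 weeks, and each mouse gave 1 array (Affymetrix Mouse Gene 2.0 ST). Values are log2 expression per probe set, so a difference of 1 is a 2-fold change. Probe sets differ in sensitivity, and levels of different genes are therefore not compared with each other.

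As background, acute phase proteins are plasma proteins whose hepatic synthesis rises or falls within hours to days of inflammation. Interleukin-6, interleukin-1, tumour necrosis factor and glucocorticoids drive them through STAT3, NF-kappaB, C/EBP factors and the glucocorticoid receptor. Orosomucoids, haptoglobin, serum amyloid A and lipocalin 2 belong to those that rise, and albumin is the classical one that falls. Adipose tissue is known to make haptoglobin, lipocalin 2, Saa3 and orosomucoid as well, and some of these are counted among adipokines. Paraoxonases are lactonases: Pon1 and Pon3 travel on high density lipoprotein (HDL), whereas Pon2 stays inside cells.

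The 3 orosomucoid genes lie side by side on mouse chromosome 4 in the order Orm1, Orm3, Orm2, and are close copies of one another. A RefSeq promoter table of the assembly GRCm38.p6 matched 8 of the 10 genes, the exceptions being Orm1 and Hp. The sequences of Orm2 and Orm3 are shown because these neighbours moved in opposite directions. Each is the 250 bases before the annotated gene start on the plus strand, at chr4:63362199-63362448 for Orm2 and at chr4:63355908-63356157 for Orm3, written 5′ to 3′, with capitals for bases that have no identical partner in an alignment of the pair.
Orm2: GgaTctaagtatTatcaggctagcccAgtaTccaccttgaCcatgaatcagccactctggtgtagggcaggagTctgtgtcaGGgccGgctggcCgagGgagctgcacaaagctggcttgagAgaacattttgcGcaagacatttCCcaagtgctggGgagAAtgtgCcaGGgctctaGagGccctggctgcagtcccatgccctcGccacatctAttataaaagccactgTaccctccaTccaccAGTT
Orm3: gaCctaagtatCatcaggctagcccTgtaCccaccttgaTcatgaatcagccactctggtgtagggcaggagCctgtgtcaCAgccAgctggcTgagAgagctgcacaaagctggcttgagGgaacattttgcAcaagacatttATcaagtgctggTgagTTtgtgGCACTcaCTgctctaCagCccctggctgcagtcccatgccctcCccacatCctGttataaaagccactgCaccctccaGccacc

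The stretches are nearly the same text: 218 of 250 bases were identical (87.2%), and 32 bases on each side were not. Among the other 27 pairs of promoters of these genes the identical share lay between 44.4% and 57.2%, the Pon genes included. A TATA box (TATAAA) stood at -33 to -28 in Orm2 and at -29 to -24 in Orm3, counted from the gene start, and in none of the other 6 promoters. That motif occurs in 12.4% of all 32851 promoters of this length, searched on both strands. The palindromic site of C/EBP factors, ttgcGcaa, stood at -120 to -113 in Orm2 and in none of the other 7 promoters, and it occurs in 0.164% of all promoters. Its capital letter is one of the bases without an identical partner in Orm3, where the same place reads ttgcAcaa. Only the exact palindrome was searched. Whether the Orm3 letters at that place also form a C/EBP site was not examined, so no loss of a site is shown. The palindrome was added after the data had been seen. The pattern chosen first for C/EBP, TTGCNNCAA, occurred in 0 of 8 promoters and in 1.74% of all. Its half-sites stand too far apart to match the palindrome, so these counts say nothing about C/EBP sites. Whether the palindrome of Orm2 has a part in the opposite changes of Orm2 and Orm3 was not tested. None of the 8 windows held the letters TTCNNNGAA (STAT, in 7.02% of all promoters). Nor did any hold an exact match to a full consensus for NF-kappaB (1.41%), the glucocorticoid receptor (0.00913%) or HNF1 (0.00913%). The strings for the glucocorticoid receptor and HNF1 are so rare that their absence here carries no information. Sites that differ from a consensus were not searched, so such sites may be present. These counts describe the letters in these windows and nothing about binding.

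Over the whole table, limma with Benjamini-Hochberg adjustment called 21.5% of genes at an adjusted p under 0.05 (2742 higher in high fat diet and 2026 lower, or 2227 and 3056 with arrays centred on their medians). For 20.7% of genes every mouse of one diet lay above every mouse of the other. Among the 10 genes, 8 were past the limma threshold and the same number had groups without overlap, 4 above and 4 below in high fat diet. The count past the threshold was 7, without Lcn2, under 10 of 20 other settings. Since this contrast took part in choosing the genes, these counts describe the threshold and are no test of them. The mean log2 value over 13 adipocyte genes was 12.01 to 12.57 across the 9 mice. High fat mouse 1 had a mean of 8.56 over 12 skeletal muscle genes, low fat mouse 4 one of 7.21, and the remaining mice 6.25 to 6.52. Low fat mouse 2 had a mean of 9.96 over 10 smooth muscle genes, and the remaining mice 8.30 to 8.69. All 9 mice stayed in, and the values without these mice are given where they matter.

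**Figure D1:**
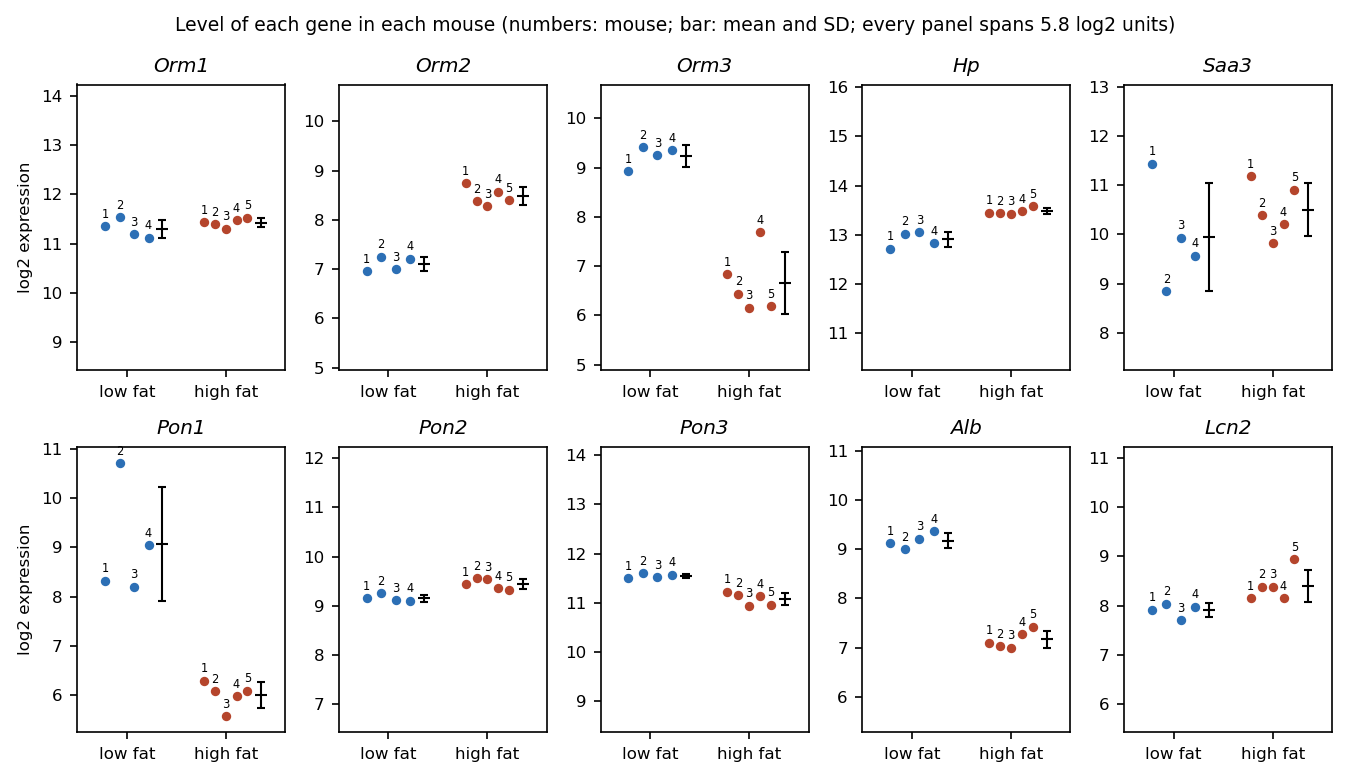
Log2 expression of each of the 10 genes (vertical axis) in the low fat (blue) and high fat (red) mice, with 1 point per mouse labelled by its number and a bar for the mean and SD. The orosomucoid panels show no gap for Orm1, higher high fat values for Orm2 and lower ones for Orm3, and the low fat points of Pon1 and Saa3 are widely spread.

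Orosomucoids, or alpha-1-acid glycoproteins, are plasma lipocalins that bind lipophilic compounds and modulate inflammation. The 3 mouse copies went 3 ways: Orm2 was higher in high fat diet, Orm3 lower, and Orm1 close to level. Orm2 (probe set 17414747) had log2 values of 8.74, 8.38, 8.28, 8.57 and 8.40 in high fat mice 1 to 5, and of 6.96, 7.25, 7.00 and 7.21 in low fat mice 1 to 4. The lowest high fat mouse was 1.03 log2 units above the highest low fat mouse, and the diets differed by 1.37 ± 0.10 (SE), or 2.59-fold.

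Orm3 (probe set 17414738) ran the other way, at 6.84, 6.44, 6.16, 7.68 and 6.19 in high fat mice 1 to 5 and at 8.93, 9.42, 9.25 and 9.35 in low fat mice 1 to 4. High fat mouse 4 stood above the other high fat mice yet 1.24 log2 units below the lowest low fat mouse. The difference of Orm3 was -2.58 ± 0.28 (SE), or 5.96-fold lower, and -2.83 without high fat mouse 4. High fat mice 2, 3 and 5 lie below the lowest array median over all probe sets, 6.45. Whether they lie above background was not determined, so this fold holds for the values as deposited. High fat mouse 4 had the highest adipocyte list mean of the high fat group (12.22, the rest 12.01 to 12.15). It also had the lowest macrophage list mean (11.03, the rest 11.18 to 11.61). The part of these markers in the Orm3 value of that mouse was not tested.

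Orm1 (probe set 17414729) lay between 11.31 and 11.53 in the high fat mice and between 11.12 and 11.54 in the low fat mice, so the diets overlapped. Its difference was 0.13 ± 0.08 (SE), with a 95% interval of -0.06 to 0.31, and it was 0.07 without low fat mouse 4 and 0.21 without low fat mouse 2. Within each mouse, the Orm2 value minus the Orm3 value was -2.25 to -1.97 in low fat diet and 0.89 to 2.22 in high fat diet, a shift of 3.95 log2 units between the diet means. Since probe sets differ in sensitivity, the sign of this value within a diet has no meaning of its own, and the shift shows only that the copies changed unequally. How much the 3 probe sets respond to transcripts of the other copies was not examined, so the assignment of each change to a single copy is uncertain.

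**Figure D2:**
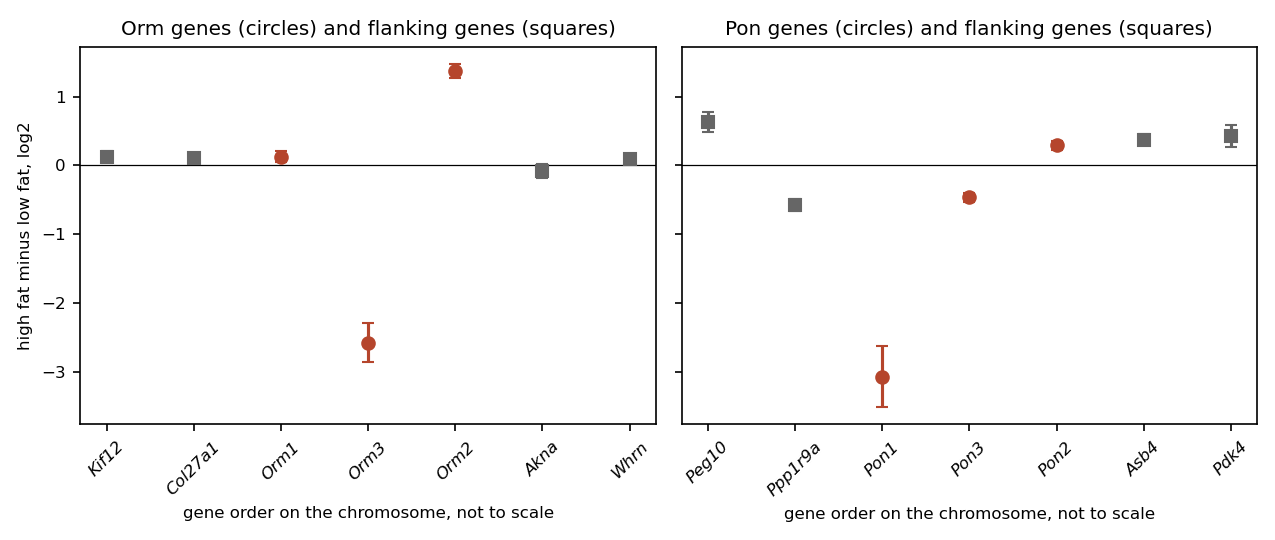
High fat minus low fat log2 difference (vertical axis, with the moderated SE as bars) of the Orm genes (left) and Pon genes (right) as circles and of the measured protein-coding genes that flank them as squares, in chromosomal order and not to scale. Orm3 and Orm2 stand apart in opposite directions from flanking genes at -0.09 to 0.12, and Pon1 is the lowest point of its cluster.

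The genes that flank the orosomucoids did not pass the limma test: Kif12 was at 0.12 (adjusted p = 0.382), Col27a1 at 0.11 (0.303), Akna at -0.09 (0.613) and Whrn at 0.09 (0.3215). Around the paraoxonases, which stand on chromosome 6 in the order Pon1, Pon3, Pon2, 3 of 4 flanking genes passed. Ppp1r9a, which encodes the neuronal scaffold neurabin, fell by 0.58 (limma adjusted p = 0.00135), the ankyrin repeat gene Asb4 rose by 0.37 (0.00872) and the imprinted gene Peg10 rose by 0.63 (0.0121). Pdk4, which encodes a kinase that inhibits pyruvate dehydrogenase, was at 0.43 (limma adjusted p = 0.0975), and passed without high fat mouse 4 (0.57, 0.00481). Across the 6 loci of the 10 genes, 3 of 24 flanking genes rose, 3 fell and 18 did not pass, beside the 21.5% of all genes. Beside Alb, Cox18 fell by 0.41 (limma adjusted p = 0.00124). Beside Hp, Dhx38 rose by 0.25 (limma adjusted p = 0.0487) and Txnl4b fell by 0.34 (0.0491). Dhx38 and Txnl4b no longer passed under 12 and 9 of 20 other settings. These neighbours were added after the data had been seen.

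Pon1 (probe set 17464614), the paraoxonase of HDL, was the member with the largest difference and with the largest low fat SD. Its log2 values were 8.32, 10.72, 8.20 and 9.04 in low fat mice 1 to 4 and 6.30, 6.08, 5.57, 5.97 and 6.09 in high fat mice 1 to 5. The highest high fat mouse was 1.91 log2 units below the lowest low fat mouse. The difference was -3.07 ± 0.44 (SE), or 8.40-fold lower. Low fat mouse 2, the mouse with high smooth muscle genes, was the highest, and without it the difference was -2.52, or 5.75-fold. All 5 high fat values lie below the lowest array median, and the limit given for Orm3 applies to this fold too.

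Pon3 (probe set 17464626), the other HDL-borne lactonase, was at 11.49, 11.60, 11.52 and 11.57 in low fat mice 1 to 4 and at 11.22, 11.16, 10.94, 11.13 and 10.96 in high fat mice 1 to 5. It too was lower in high fat diet without overlap, by a much smaller amount: -0.46 ± 0.06 (SE), or 1.38-fold. Pon2 (probe set 17464638), the intracellular paraoxonase, was the member of the cluster with a higher value in high fat diet, at 9.44, 9.56, 9.54, 9.36 and 9.33 against 9.15, 9.26, 9.11 and 9.10. Its groups were separated by only 0.07 log2 units, and the difference was 0.29 ± 0.06 (SE), or 1.22-fold. Within mice, Pon3 minus Pon1 was 4.87 to 5.37 in high fat diet and 0.88 to 3.32 in low fat diet, so these copies changed unequally as well.

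Alb (probe set 17438886), the main carrier of fatty acids in plasma, was at 9.13, 9.001, 9.22 and 9.36 in low fat mice 1 to 4. In high fat mice 1 to 5 it was at 7.11, 7.03, 7.00, 7.28 and 7.43, so that the groups were 1.57 log2 units apart. The difference was -2.01 ± 0.10 (SE), or 4.02-fold lower, and it kept between -2.07 and -1.95 when each mouse was left out in turn. Among the 10 genes, Alb, Orm3 and Pon1 were the ones more than 4-fold lower.

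**Figure D3:**
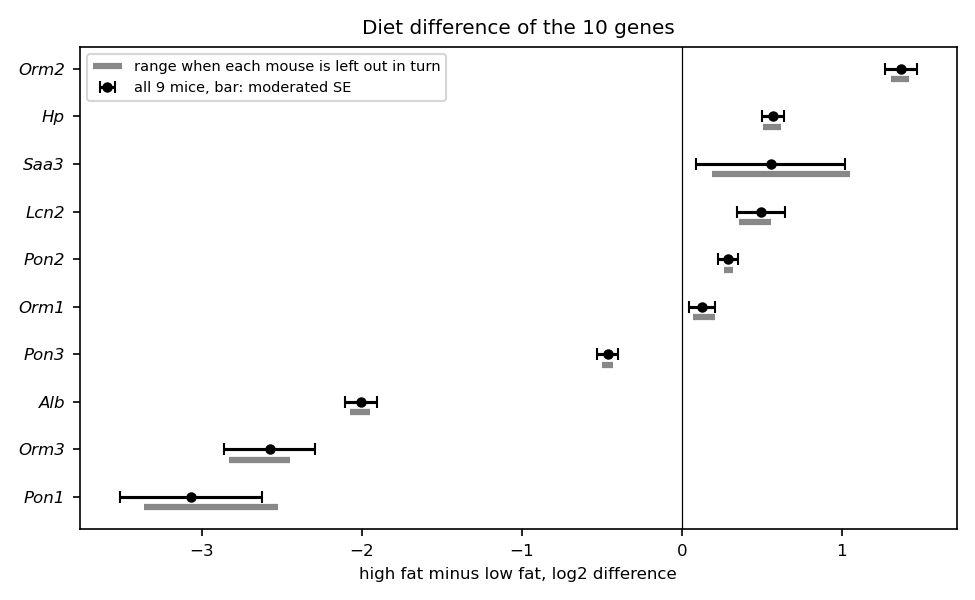
High fat minus low fat log2 difference of the 10 genes (horizontal axis), with the moderated SE as bars and, in grey beneath each, the range when each mouse was left out in turn. Saa3 spans the widest range, 0.19 to 1.05, and Pon2 the narrowest, 0.26 to 0.32.

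Haptoglobin, which binds free haemoglobin and is made by adipocytes as well as liver, was higher in high fat diet. Hp (probe set 17512809) was at 13.45, 13.44, 13.43, 13.48 and 13.58 in high fat mice 1 to 5, and at 12.72, 13.02, 13.05 and 12.83 in low fat mice 1 to 4. The high fat mice were close to each other, with an SD of 0.06 against 0.16 in low fat diet, and all of them lay above the low fat mice. The difference of Hp was 0.57 ± 0.07 (SE), or 1.49-fold. Its values are near the top of the table, and whether so bright a probe set approaches saturation was not determined.

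Lipocalin 2 sequesters the iron-binding siderophores of bacteria and is stored in neutrophil granules, and it is also made by adipocytes and macrophages. Lcn2 (probe set 17383892) was at 8.16, 8.39, 8.38, 8.16 and 8.95 in high fat mice 1 to 5 and at 7.92, 8.04, 7.71 and 7.98 in low fat mice 1 to 4. The groups were separated by 0.12 log2 units, with high fat mouse 5 above the rest. The difference was 0.50 ± 0.15 (SE), or 1.41-fold, and 0.36 without that mouse. Mesothelial markers were also highest in high fat mouse 5 (list mean 9.26, the rest of that diet 8.07 to 8.89). High fat mouse 3, with the lowest mesothelial mean of that diet, had more Lcn2 than high fat mouse 4. The neutrophil list mean of high fat mouse 5 was the highest of its diet too (6.27, the rest 6.10 to 6.21), with the low fat mice at 6.23 to 6.28. The part of these markers in the Lcn2 value was not tested.

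Saa3, the serum amyloid A gene that mice express mainly outside the liver, differed more among mice of 1 diet than between diets. Saa3 (probe set 17491193) was at 11.43, 8.85, 9.93 and 9.57 in low fat mice 1 to 4 and at 11.18, 10.39, 9.83, 10.21 and 10.91 in high fat mice 1 to 5. Low fat mouse 1 was the highest of all mice and low fat mouse 2 the lowest. The difference was 0.56 ± 0.47 (SE), with a 95% interval of -0.48 to 1.59, and it was 1.05 without low fat mouse 1 and 0.19 without low fat mouse 2. Without high fat mouse 1 and low fat mouse 2, the mice with the highest muscle genes, the difference of Saa3 was 0.02. Low fat mouse 1 had the highest macrophage list mean of its group (10.13, against 9.61 to 9.92). High fat mouse 3, in contrast, had the highest macrophage list mean of all mice (11.61) and the lowest Saa3 value of its group. The part of macrophage markers in the Saa3 values was not tested.

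Spread among mice of 1 diet thus set Pon1 and Saa3 apart from most genes. The SD over the low fat mice was 1.16 for Pon1 and 1.09 for Saa3, larger than in 99.9% and 99.8% of all genes. Over the high fat mice the SD was 0.63 for Orm3 and 0.54 for Saa3, larger than in 99.7% and 99.6% of genes. Pon3 had the smallest SD of the 10 genes in low fat diet (0.05) and Hp in high fat diet (0.06).

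**Figure D4:**
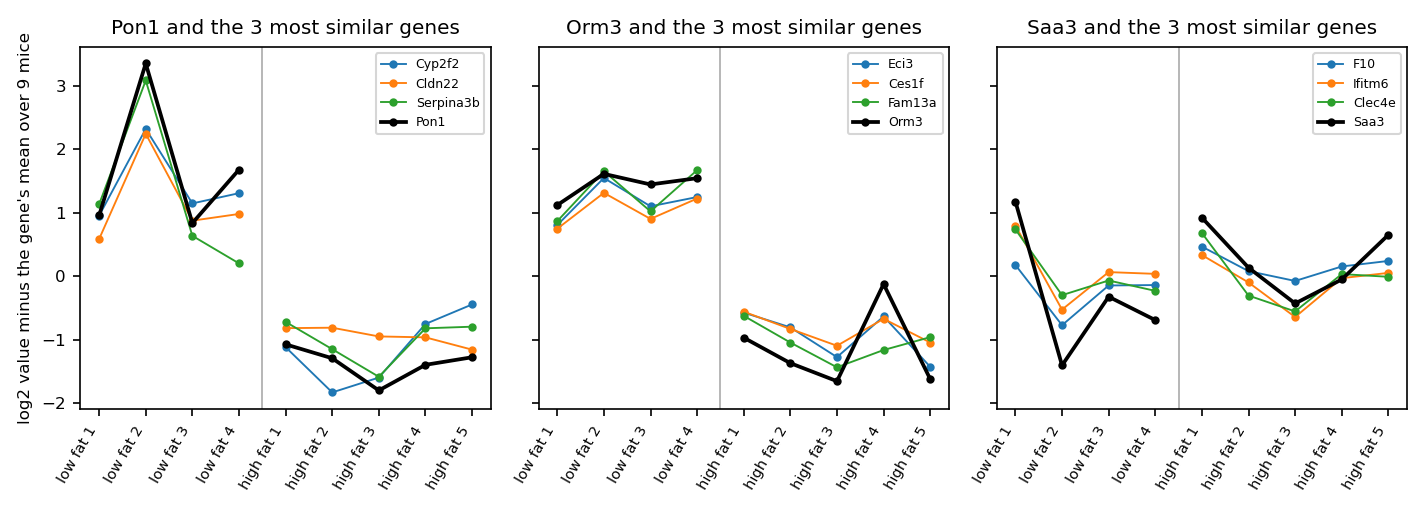
Log2 value minus the gene's own mean over the 9 mice (vertical axis) in each mouse, for Pon1, Orm3 and Saa3 (black) and the 3 genes with the most similar profile (colours), where lines only join the values of 1 gene within a diet. Genes near Pon1 share its peak in low fat mouse 2, and genes near Saa3 are, as Saa3 is, highest in mouse 1 and lowest in mouse 2 of the low fat group.

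The genes with the most similar profiles were found by the root mean square difference over the 9 arrays between profiles centred on each gene's own mean. This is a description of 9 mice over all named genes, and the diet step itself makes profiles alike. Nearest to Pon1 were the cytochrome P450 gene Cyp2f2 (0.55 log2 units), the claudin gene Cldn22 (0.58) and the serpin gene Serpina3b (0.58), against a root mean square deviation of Pon1 itself of 1.68. Serpina3b repeated the peak in low fat mouse 2, at 10.71 there and 7.84 to 8.77 in the other low fat mice. Nearest to Orm3 were Eci3, an enoyl-CoA isomerase gene (0.37), the carboxylesterase gene Ces1f (0.47) and Fam13a (0.48).

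Alb lay close to Slc1a3, a glutamate transporter gene (0.22), Pck1, which encodes the cytosolic phosphoenolpyruvate carboxykinase of glyceroneogenesis (0.24), and the gelatinase gene Mmp9 (0.24). Pck1 was at 10.89 to 11.36 in the high fat mice and at 12.91 to 13.12 in the low fat mice. Hp lay close to Pdlim7 (0.08), Tram2 (0.08) and Parvb (0.09), and Lcn2 to Ifi204 (0.12), an interferon-inducible gene, Itgb8 (0.12) and Gja1 (0.12), which encodes connexin 43. Saa3 had no close companion: F10, the coagulation factor X gene, Ifitm6 and the macrophage lectin gene Clec4e were nearest, each at 0.50 to 0.52 against a deviation of Saa3 itself of 0.78.

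Other acute phase proteins did not move as one. Of 27 measured genes on a list of such proteins, 9 rose, 2 fell and 16 did not pass, with a median log2 difference of 0.13 against 0.00 over all genes. The share called over all genes, 21.5%, is the background for this list and for each list below. Lbp, which hands bacterial lipopolysaccharide to its receptor, rose 2.13-fold from 11.34 ± 0.34 (SD, n = 4) to 12.44 ± 0.04 (SD, n = 5), with limma adjusted p = 0.000348. The leucine-rich glycoprotein gene Lrg1 rose 1.69-fold (limma adjusted p = 0.000587) and the metallothionein gene Mt2 1.53-fold (0.000264). Cp, which encodes the copper ferroxidase ceruloplasmin, fell, being 1.92-fold lower (limma adjusted p = 0.000263), and Rbp4, the retinol carrier, was the other one to fall (1.35-fold lower, 0.00125).

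The list held 16 genes whose highest value in any mouse was under the lowest array median, among them Crp, Apcs, Hamp, Saa2, Saa4 and the fibrinogen genes Fga, Fgb and Fgg. Mbl2, Ptx3 and Ttr, which are counted among the genes that rose, were as dim. Saa2 was at 4.98 ± 0.23 (SD, n = 5) in high fat and 4.85 ± 0.14 (SD, n = 4) in low fat diet, and Crp at 5.28 ± 0.14 (SD, n = 5) and 5.31 ± 0.16 (SD, n = 4). The count of 11 genes past the threshold was 7 with arrays centred on their medians, with dim genes left out, without high fat mouse 3 and without high fat mice 1 and 2.

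Hepatocyte markers were mostly dim. Of 18 measured genes, 2 fell, 1 rose and 15 did not pass, beside the 21.5% called over all genes, and 11 never reached the lowest array median. Their list mean was lower in every high fat mouse (6.36 to 6.38) than in the low fat mice (6.41 to 6.48). Cyp2e1 (-0.79) and Tdo2 (-0.46) had the largest differences of the list. The median difference was -0.02, so the list mean does not show a shared fall of these genes. Afp, the fetal counterpart of albumin and its neighbour on chromosome 5, was at 5.85 ± 0.10 (SD, n = 5) and 5.97 ± 0.08 (SD, n = 4), with limma adjusted p = 0.201. The liver transcription factor gene Hnf4a was at 6.26 ± 0.04 (SD, n = 5) and 6.17 ± 0.13 (SD, n = 4), and F2, the prothrombin gene, at 5.09 ± 0.03 (SD, n = 5) and 5.07 ± 0.06 (SD, n = 4). Those past the threshold were Cyp2e1, a cytochrome P450 gene that was bright in every mouse (12.68 to 13.93) and 1.73-fold lower in high fat diet (limma adjusted p = 0.000695), the tryptophan dioxygenase gene Tdo2 (1.37-fold lower, 0.00619) and Ttr, the transthyretin gene. Ttr, which is also on the list of acute phase proteins, rose by 0.21 (limma adjusted p = 0.0365). It no longer passed under 11 of 20 other settings (0.16 to 0.25). All values of Ttr, and those of Tdo2 in the high fat mice, were under the lowest array median.

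In the list of cytokines and receptors that drive the acute phase, 4 of 15 genes rose and the other 11 did not pass, with a median difference of 0.17, beside the 21.5% called over all genes. Tnf rose 1.78-fold (limma adjusted p = 0.000184), the oncostatin M receptor gene Osmr 1.44-fold (0.000445), the interleukin-1 receptor gene Il1r1 by 0.59 on the log2 scale (0.00122) and the interleukin-6 receptor gene Il6ra 1.24-fold (0.00147). Il6 itself was at 4.94 ± 0.10 (SD, n = 5) in high fat and 4.97 ± 0.20 (SD, n = 4) in low fat diet, with limma adjusted p = 0.894, and its values are under the lowest array median.

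Among 13 transcription factors and feedback genes of the response, 6 rose, 2 fell and 5 did not pass, with a median difference of 0.16. The NF-kappaB cofactor genes Bcl3 and Nfkbiz rose 1.48-fold and 1.27-fold (limma adjusted p = 0.00026 and 0.003745). The members that fell were Cebpa, the C/EBP factor of adipocytes and hepatocytes, 1.51-fold lower (limma adjusted p = 0.000224), and Nr3c1, the glucocorticoid receptor gene, 1.37-fold lower (0.000286). Stat3 rose by 0.24 and its feedback inhibitor gene Socs3 by 0.36 (limma adjusted p = 0.00654 and 0.0103).

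HDL is the particle that carries Pon1 and Pon3. Of 13 genes for HDL and lipoprotein partners, 4 rose, 2 fell and 7 did not pass, with a median difference of 0.07. The phospholipid transfer protein gene Pltp rose 1.76-fold (limma adjusted p = 0.000319), the sterol exporter gene Abcg1 1.92-fold (0.00152) and Pcyox1 1.42-fold (0.00614), while Apoc1 was 2.14-fold lower (0.000785). Apoa1, the main HDL protein, was at 6.49 ± 0.07 (SD, n = 5) in high fat and 6.36 ± 0.17 (SD, n = 4) in low fat diet and did not pass (limma adjusted p = 0.27).

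Receptors and partners of the 10 proteins were mixed, with 4 of 14 higher, 3 lower and 7 not past the threshold, and a median difference of 0.01. Hmox1, haem oxygenase 1, which degrades the haem that haptoglobin helps to clear, rose 2.89-fold (limma adjusted p = 7.74e-05), whereas Cd163, the receptor for haptoglobin with haemoglobin, was at -0.17 (0.215). Mmp9, whose product forms a complex with lipocalin 2, was 3.26-fold lower (limma adjusted p = 8.24e-05), and the lipocalin 2 receptor gene Slc22a17 fell by 0.19 (0.0376). Tlr2, a receptor proposed for serum amyloid A, rose 1.55-fold (limma adjusted p = 0.000263). Sparc, an albumin-binding matrix protein gene, rose 1.24-fold (limma adjusted p = 0.000887), and Fcgrt, the receptor that rescues albumin from degradation, fell by 0.28 (0.00493).

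**Figure D5:**
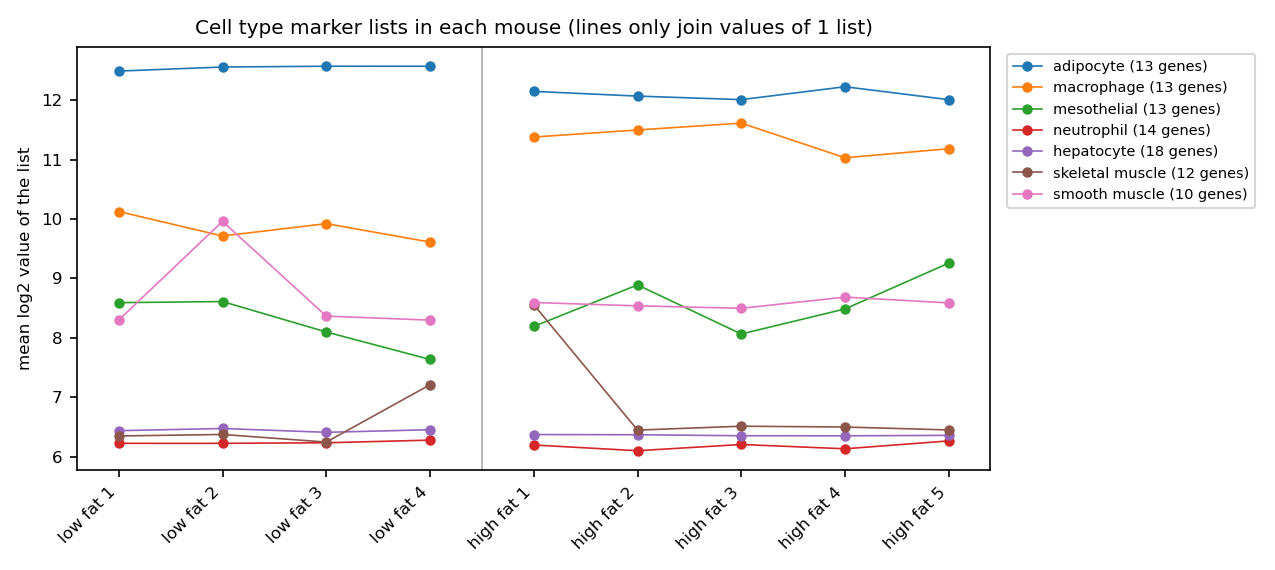
Mean log2 value of each marker list (vertical axis) in each mouse, with low fat mice on the left and high fat mice on the right and lines that only join values of 1 list within a diet. Macrophage lists stand higher in all high fat mice (11.03 to 11.61) than in low fat mice (9.61 to 10.13), and adipocyte lists lower. Neutrophil and hepatocyte lists are drawn near the bottom, and the heights of different lists are not compared.

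Cell type markers moved beside the 10 genes. All 13 macrophage genes rose, led by Gpnmb (12.1-fold), Cd68 (3.66-fold), Trem2 (10.4-fold) and Itgax (8.78-fold), and 10 of 13 adipocyte genes fell while Lep rose. In bulk tissue, fewer cells of a type and less RNA per cell cannot be told apart, and the part of these shifts in the diet values of the 10 genes was not tested. Of 14 neutrophil genes, 8 never reached the lowest array median, and the list mean was 6.10 to 6.27 in high fat and 6.23 to 6.28 in low fat diet. In that list S100a8 rose (2.05-fold), and Mmp9, Elane (1.51-fold lower) and Retnlg fell (limma adjusted p = 0.000866, 8.24e-05, 0.00178 and 0.0271), with diet means of the granule genes Ltf, Camp and Ngp between 5.17 and 5.57. Retnlg no longer passed under 7 of 20 other settings.

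The mesothelial list mean was 8.07 to 9.26 in high fat and 7.64 to 8.61 in low fat mice, with 1 of 13 genes past the threshold, Cldn15 (0.26, limma adjusted p = 0.0481), which no longer passed under 13 of 20 other settings. In the muscle lists 1 gene each rose, Casq1 of skeletal muscle (2.22-fold, limma adjusted p = 0.0473) and Synpo2 of smooth muscle (1.57-fold, 0.012). Casq1 no longer passed under 11 of 20 other settings. Without low fat mouse 2, 4 smooth muscle genes passed. Of 10 genes of prostate and seminal vesicle, limma called 0, and 0 had an unadjusted p under 0.05; the nearest were Svs6 (-0.10) and Defb50 (-0.08), and the list mean was 5.21 to 5.39 over the 9 mice.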

How the data were processed

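The deposited table holds 33793 probe sets with log2 expression values. RMA, limma and R 3.5.0 appear in the submitters' processing notes, which do not say what each was used for. Further steps by the authors are not stated. Of the probe sets, 23521 carry 1 gene symbol; for the 1082 symbols with several, the one with the highest mean was kept, leaving 22180 genes. The number of arrays limits the precision, and p-values weigh each diet difference against the spread between mice, moderated over all genes. No detection calls were used.

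Diet was tested with limma 3.58.1 in R 4.3.3 (lmFit, eBayes, intercept and diet, 9 mice) with Benjamini-Hochberg adjustment over all genes and a threshold of 0.05. "Rose" and "fell" mean past it. SE is limma's moderated standard error, and folds are powers of 2 of the log2 differences. The procedure was tested on simulated data.

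The 10 genes and all gene lists were chosen with earlier results of these data known. Of 190 listed genes 178 were measured. Lists are given by counts and medians. Up to 4 genes past the threshold with the smallest p are named per list, or 2 where none passed; further names were added after their values were seen. Promoter letters come from RefSeq (GRCm38.p6), aligned with Biopython 1.88. Alternatives covered normalization, centring, dim genes, probe choice, variance model, array weights, mouse number and left-out mice.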

Additional observations from a re-analysis of the deposited data

How the results depend on the processing

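The differences of the 10 genes kept their direction under all 20 alternatives, including each of 9 mice left out, and moved by less than the SD between mice, but that of Saa3 went from 0.56 to 0.02 without high fat mouse 1 and low fat mouse 2. Genes changed by diet numbered 4768, and 3759 to 4364 with 1 mouse left out, 3210 without high fat mice 1 and 2, and 6105 at an adjusted p of 0.1. Of these, genes higher in high fat diet fell from 2742 to 1716 without high fat mice 1 and 2. Over all probe sets, the arrays of high fat mice 1 and 2 had the lowest medians and the widest spread. Their log2 values had an SD of 1.87 in each, against 1.83 to 1.84 in the remaining mice. Their 75th percentile was 8.24 in each, against 8.17 to 8.19. Over the 22180 genes tested, the same arrays had the highest medians (6.98 in each). Medians over these genes were 6.96 to 6.98 in the high fat mice and 6.91 to 6.95 in the low fat mice. The distributions of the arrays were thus not equal. Whether the arrays of high fat mice 1 and 2 were processed differently was not tested. With the mouse number as a replicate block 4036 genes changed, and 4364 in the same mice without the block. The mouse number comes from the titles, which do not say what it stands for. Same-numbered mice correlated at 0.05 to 0.13 in their deviations, and 2 of 4 high fat and 1 of 4 low fat mice correlated best with their own number. These values do not settle whether same-numbered mice share anything else. With 1 mouse left out, the skeletal muscle list median ranged from -0.15 to 0.42 and the smooth muscle list median from -0.31 to 0.25. The median of the skeletal muscle list (0.30) turned to -0.15 without high fat mouse 1, -0.14 without high fat mice 1 and 2 and -0.17 without high fat mouse 1 and low fat mouse 2, a setting added after seeing the data. The median of the smooth muscle list (-0.16) turned to 0.25 without low fat mouse 2 and 0.24 without both mice. For each of these turns the mouse left out was the one with high muscle genes. No probe alternative existed for the 10 genes, which have 1 probe set each.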
